A study of Mus musculus with 8 samples.

Results

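Gene-end regions that were accessible in every library of a mouse granulosa-cell ATAC-seq study are described here. Intervals of the 8 deposited peak lists on chromosomes 1 to 19 and X were merged wherever they shared 1 bp or more, which gave 98245 regions. The regions described were chosen by 2 criteria: a peak in all 8 lists, and a midpoint no farther than 1 kb from either end of a gene that codes for protein. In all, 11566 regions met both, 11.8% of all merged regions and 31.1% of the 37189 regions held by all 8 lists. The other 25623 regions held by all 8 lists lay farther from gene ends and are called distal below. Because presence and position chose the regions, both are descriptions, and the measures compared are the width of a region (the base pairs that a library's peaks cover in it) and its number of summits (local maxima that the authors' peak caller reported inside an interval).

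Granulosa cells surround the oocyte in the ovarian follicle and respond to the surge of luteinising hormone (LH) with the programme that leads to ovulation. All mice were 21 days old and were primed with 5 IU of the gonadotropin eCG (PMSG in the titles), under which follicles grow. In the LH experiment, wild-type CBA x C57BL/6 F1 mice gave 2 libraries titled PMSG, from cells taken 46 h after eCG, and 2 titled hCG, from mice that then had 5 IU of human chorionic gonadotropin, a substitute for LH, for 6 h. In the PR experiment, mice of the strain C.129S7(B6)-Pgrtm1Bwo/OmcJ, all given eCG and then hCG, gave 2 libraries of wild-type mice (WT) and 2 of knockouts (KO) for Pgr, the gene of the progesterone receptor (PGR), a transcription factor that LH induces. Each library pooled cells of 2 to 3 mice. In the LH experiment the time tags go against the titles, with 0 h on the hCG libraries and 6 h on the PMSG libraries. Titles and source names match and are followed throughout, so every direction between hCG and PMSG rests on the titles. For the PR libraries the source name is pre-ovulatory although the tag is 6 h; they are taken as post-hCG, which is how the series' design describes them.

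ATAC-seq tags open chromatin with the transposase Tn5. Promoters of broadly expressed genes are typically open in most cell types, often lie in CpG islands, and keep a stretch free of nucleosomes around the start of transcription where general factors and RNA polymerase assemble. Regulated promoters and distal enhancers are more often open in some cell states and closed in others.

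The sequences of 6 promoters are shown because the results turn on their regions. They run from 250 bases before to 50 after the listed start, 5′ to 3′ along the gene, from RefSeq (GRCm38.p6), and capitals mark matches on either strand to the motifs spelled out further on. Six5, a homeobox transcription factor, had the widest gene-end region by its mean over the 8 libraries (promoter chr7:19094294-19094593, plus strand). The uncharacterised gene 2310009B15Rik had one of the best fold enrichments within the lists (chr1:138856805-138857104, minus strand). Ypel4, of the yippee-like family, headed the regions wider in hCG (chr2:84733954-84734253, plus strand). Tafa5, which encodes a secreted chemokine-like protein, was the first start among the regions narrower in hCG (chr15:87544049-87544348, plus strand). Foxl2, the forkhead factor of granulosa-cell identity (chr9:98955357-98955656, plus strand), and Cebpb, a transcription factor induced by LH (chr2:167688665-167688964, plus strand), passed the same test in opposite directions.
Six5: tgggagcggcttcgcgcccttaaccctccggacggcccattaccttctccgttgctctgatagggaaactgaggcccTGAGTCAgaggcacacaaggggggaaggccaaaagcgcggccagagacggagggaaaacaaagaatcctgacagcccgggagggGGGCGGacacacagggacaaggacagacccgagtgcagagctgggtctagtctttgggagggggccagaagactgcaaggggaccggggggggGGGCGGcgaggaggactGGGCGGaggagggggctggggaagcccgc
2310009B15Rik: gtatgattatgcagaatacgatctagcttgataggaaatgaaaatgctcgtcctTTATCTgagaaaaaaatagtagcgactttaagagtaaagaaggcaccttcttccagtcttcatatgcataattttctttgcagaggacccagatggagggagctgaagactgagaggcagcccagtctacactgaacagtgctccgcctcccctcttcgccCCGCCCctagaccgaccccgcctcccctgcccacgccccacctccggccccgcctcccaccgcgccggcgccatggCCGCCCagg
Ypel4: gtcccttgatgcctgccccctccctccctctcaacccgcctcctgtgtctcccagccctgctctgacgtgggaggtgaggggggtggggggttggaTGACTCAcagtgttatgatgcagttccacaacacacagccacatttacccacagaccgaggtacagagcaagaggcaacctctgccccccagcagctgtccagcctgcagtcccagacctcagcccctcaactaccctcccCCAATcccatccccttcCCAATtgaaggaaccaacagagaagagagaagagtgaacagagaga
Tafa5: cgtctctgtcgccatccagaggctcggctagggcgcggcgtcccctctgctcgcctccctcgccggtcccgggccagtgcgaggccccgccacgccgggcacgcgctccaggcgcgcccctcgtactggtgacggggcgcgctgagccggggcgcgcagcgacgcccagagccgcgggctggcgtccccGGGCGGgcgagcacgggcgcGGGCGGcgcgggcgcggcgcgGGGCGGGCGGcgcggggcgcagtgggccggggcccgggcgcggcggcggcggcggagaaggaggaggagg
Foxl2: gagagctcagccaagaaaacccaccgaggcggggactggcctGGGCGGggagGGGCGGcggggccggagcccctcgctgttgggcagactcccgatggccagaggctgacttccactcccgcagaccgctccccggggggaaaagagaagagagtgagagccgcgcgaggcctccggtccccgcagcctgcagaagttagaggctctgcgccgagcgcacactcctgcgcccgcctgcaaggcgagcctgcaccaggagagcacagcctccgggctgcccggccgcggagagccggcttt
Cebpb: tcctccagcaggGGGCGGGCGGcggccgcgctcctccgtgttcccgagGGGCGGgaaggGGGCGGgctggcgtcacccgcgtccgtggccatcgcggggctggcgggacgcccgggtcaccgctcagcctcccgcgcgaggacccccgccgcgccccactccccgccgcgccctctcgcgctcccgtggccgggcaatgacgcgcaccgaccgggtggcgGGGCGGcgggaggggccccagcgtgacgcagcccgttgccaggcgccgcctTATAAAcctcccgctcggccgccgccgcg
The Ypel4 promoter held 2 CCAAT boxes, 1 AP-1 match and no GC box, with a CpG observed-over-expected ratio of 0.12. Its counterpart at Tafa5 held 4 GC boxes and had a CpG ratio of 1.08. Both Foxl2, with 2 GC boxes, and Cebpb, with 5 GC boxes and a TATA box, were rich in G and C (71.3% and 80.7%). The printed bases need not hold the summit with the best fold enrichment of the region. Its median position from the start was −443 bp at Six5, 70 bp at 2310009B15Rik, 549 bp at Tafa5 and −355 bp at Foxl2, all outside them. It was −155 bp at Ypel4 and −20 bp at Cebpb, inside them.

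Gene ends that were open in 1 library were mostly open in all. Of 14174 regions with a midpoint within 1 kb of a gene end, 81.6% were held by all 8 lists, against 30.5% of the 84071 regions farther away. Between 293 and 585 gene-end regions fell in each of the classes held by 1 to 7 lists. The 321 regions held by 7 lists had a median width of 367 bp, against 993 bp for the regions held by all 8, and 116 of the 321 lacked a peak only in KO replicate 2. At the distance limit, the 509 regions with a midpoint 800 to 1000 bp from a gene end were 972 bp wide in the median and the 391 just outside it, at 1000 to 1200 bp, were 849 bp wide. The regions lay at ends of 12422 of 21631 protein-coding genes (57.4%).

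Housekeeping families were nearly complete among these genes. Ribosomal protein genes, whose products build the cytoplasmic ribosome, had such a region at 73 of 77 genes, and those of the mitochondrial ribosome at 73 of 78. The proteasome, which degrades tagged proteins, had one at 36 of 39 genes, and Mediator, which links transcription factors to RNA polymerase, at 29 of 30. Families of sensory and hair tissue were nearly absent, with 6 of 1110 olfactory receptor genes, 1 of 353 vomeronasal receptor genes and 0 of 56 keratin-associated protein genes. These shares follow from the choice of regions and are read against the 57.4% over all genes.

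Of 12 granulosa markers, 7 had a region open in all 8 libraries at an end (58.3%, against 57.4% of all protein-coding genes), among them Foxl2, Inha (the α subunit of inhibin), Fshr (the receptor of follicle-stimulating hormone), Esr2 and Fst (follistatin). Cyp19a1 (aromatase), Inhba, Amhr2 and Hsd17b1 had no region midpoint within 1 kb of an end, and that of Nr5a2 was held by fewer libraries. Of the markers of other cells, 2 of 8 for theca and stroma (Acta2 and Ptch1), 2 of 6 for endothelium (Kdr and Cdh5), 1 of 9 for leukocytes (Spi1) and 2 of 8 for oocytes (Gdf9 and Dazl) had one. An open gene end does not measure expression, and the lists hold no reads, so these counts do not give the share of any cell type. Of the 17 LH-induced genes, 12 (70.6%) had a region open in all libraries, including Adamts1, Ptx3 and Cyp11a1. Neither Pgr itself nor Sphk1 had a region midpoint within 1 kb of an end, and those of Star, Runx1 and Sult1e1 were held by fewer than 8 libraries.

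Gene-end regions were wider than distal ones in every library. The median width was 1038 and 1029 bp in the hCG libraries and 858 and 865.5 bp in the PMSG libraries. In the PR experiment it was 1071 and 1044 bp in WT, and 1070 and 960 bp in KO. Distal regions measured 601 and 589 bp in hCG, 483 and 476 bp in PMSG, 632 and 618 bp in WT, and 628 and 516 bp in KO. No library's distal median reached any library's gene-end median. The ratio of gene-end to distal width was 1.75 over the 8 libraries, higher in 8 of 8 (exact permutation test by sign flips, two-sided, p = 0.0078, the smallest that 8 pairs allow), and was 1.77 in the LH and 1.74 in the PR experiment alone (p = 0.125 each by the same exact test, the smallest that 4 pairs allow).

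**Figure D1:**
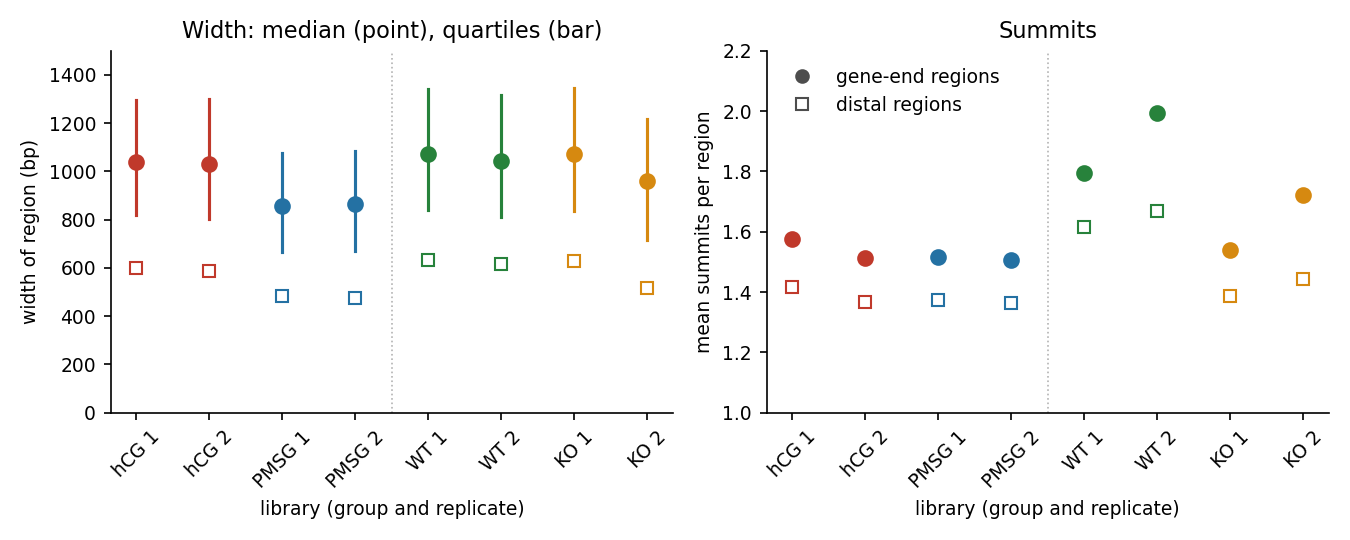
Left, width in bp of gene-end regions (filled points, median; bars, quartiles over 11566 regions) and of distal regions (open squares, median of 25623) in each library. Right, mean summits per region, with an axis that starts at 1, the least a region can have. The PMSG libraries have the lowest gene-end widths, 858 and 865.5 bp, and the WT libraries the highest summit numbers, 1.79 and 1.99.

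Summits were more numerous per region at gene ends. A gene-end region held on average 1.58 and 1.51 summits in the hCG libraries, 1.52 and 1.51 in PMSG, 1.79 and 1.99 in WT, and 1.54 and 1.72 in KO. The mean exceeded that of distal regions by 0.191 over the 8 libraries, higher in 8 of 8 (exact permutation test, two-sided, p = 0.0078). Per kb of covered sequence the order was the opposite, with 1.38 to 1.83 summits at gene ends and 1.97 to 2.53 in distal regions over the libraries, a measure that width sets in part, since a region in a list has at least 1 summit. The size of the per-region difference depended on the distance limit: with midpoints within 500 bp it was 0.0505. Across the 11566 regions, mean width and mean summit number went together (Pearson's r = 0.69, a description over regions that share the same 8 libraries).

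Most regions were single, continuous stretches. In 10378 of them (89.7%) each of the 8 libraries had exactly 1 interval. Only 1 summit in every library was found in 3552 (30.7%), and 31.7% had an equal number of summits in all 8. The best summit of a region, by fold enrichment, moved over 66 bp in the median between the 8 libraries, and stayed within 50 bp in 37.1% of regions, against 45% of distal ones. Neighbouring summits of a region were 241 to 321 bp apart in the median of each library, and between 11.4% and 20.6% of pairs were closer than 150 bp.

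The regions with extreme values were named by fixed rank. Six5 measured 3507 and 3439 bp in hCG, 2728 and 2860 bp in PMSG, 3516 and 3290 bp in WT, and 3478 and 3367 bp in KO, with 6 to 12 summits a library. Next in mean width came Gadd45g, a stress-response gene (3211 bp), Stat6, a transcription factor of cytokine signalling (3155 bp), and Sox12, an SRY-related factor (3148 bp). Then followed the predicted genes Gm20783 and Gm35364, Foxp1 (a forkhead factor), Plxnc1 (a semaphorin receptor), Adgrl2 (latrophilin 2) and Zfp703, down to 2797 bp. The largest mean summit numbers after the 8.75 of Six5 were 7.63 at Nisch, which encodes the imidazoline-binding protein nischarin, 7.50 at LOC115486128, 7.38 at Plxnc1 and 7.25 at Gadd45g. At the other extreme, regions at Gm42323, Krt86 (a hair keratin), Cdh15 (M-cadherin of muscle), Susd2 and Chmp6 averaged 177 to 197 bp with 1 summit in every library.

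The best fold enrichments did not belong to the widest regions. The widest 10 stood at mean percentiles of 16.1 to 45.6 within the lists, against a median of 78.0 over all gene-end regions. Lars2, which encodes the mitochondrial leucyl-tRNA synthetase, had the best mean percentile (99.99), with a fold of 24.9 to 34.1 and a width of 366 to 381 bp in all 8 libraries. The others were 2310009B15Rik, Lipo3, Gm14410 and Depdc1a, all with a mean percentile above 99.9 and between 621 and 956 bp wide except in 2310009B15Rik (494 to 777 bp) and Lipo3 (445 to 729 bp). Whether reads placed at several copies of a sequence contribute to such regions was not tested. Over all regions mean width and mean percentile were nearly unrelated (Pearson's r = −0.06, a description). Lars2 and Gm14410, like Susd2 and Chmp6 above, passed the limma test described further on as narrower in hCG after centring. None of them passed without centring.

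Most regions held a gene start. The RefSeq promoter table, which gives strand, had an entry for 17274 of the genes. By it, 8473 regions (73.3%) had a listed start within 1 kb of their midpoint. Of the rest, 2274 were nearest to a gene without an entry. The other 819 were nearest to a gene with an entry but had no listed start within 1 kb, and are called other-end regions. Their position was not checked against strand, so some may lie at a start that is not listed. In 699 of the 8473, the starts of a pair of oppositely transcribed genes were present. These divergent promoters were wider than single starts in every library, from 984 to 1252 bp against 872 to 1083 bp, with similar summit numbers (1.5 to 2.01 against 1.49 to 1.98). Other-end regions were narrower, with medians of 530 to 716 bp, and had lower fold percentiles, 54.9 to 67.1 against 75.5 to 83.8 at starts.

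Around starts, accessibility reached farther into the gene than upstream of it, and more so in the hCG libraries than in the PMSG libraries. The median reach downstream of the start was 597 and 609 bp in hCG against 474 and 483 bp in PMSG, a difference of 124.5 bp. Upstream it was 431 and 419 bp in hCG against 374 and 376 bp in PMSG, a difference of 50 bp. The groups did not overlap in either measure (exact permutation test over 2 against 2 libraries, two-sided, p = 0.333 for each, the smallest this design allows). Reach was taken in bp without removing library-wide differences in width, and distal regions were wider in hCG too (ratio of medians 1.24). Whether the reach differed beyond such a library-wide shift was not tested. The best summit lay at a median of −13 and −9 bp from the start in hCG and of −29 and −27 bp in PMSG. In the PR experiment the downstream reach was 625 and 613 bp in WT and 631 and 559 bp in KO, and the groups overlapped. Its upstream reach was 448 and 429 bp in WT and 448 and 401 bp in KO, overlapping too (exact permutation p = 1 for both measures, two-sided). Without KO replicate 2, WT fell below KO by −12 bp downstream and −9.5 bp upstream.

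**Figure D2:**
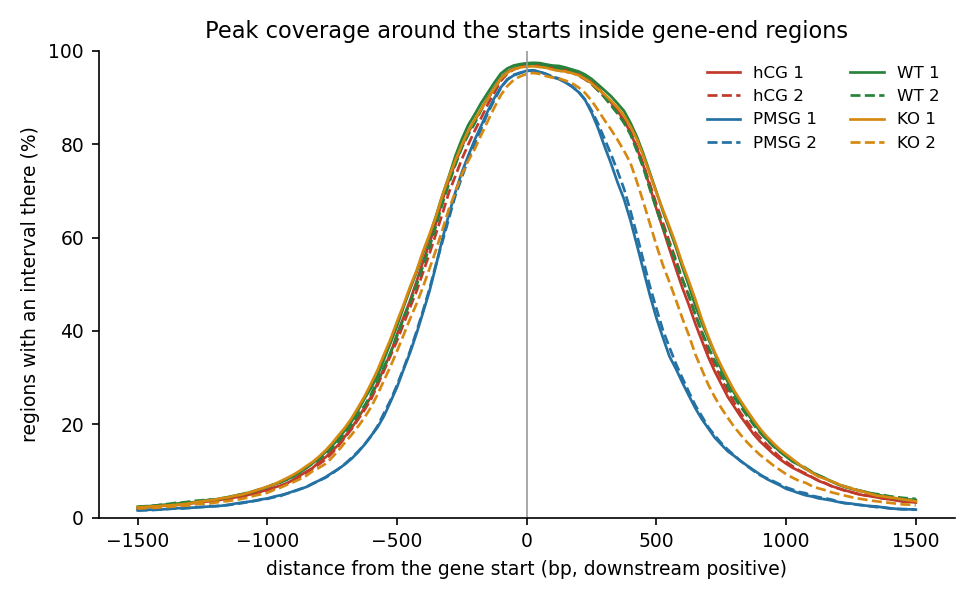
Share (%) of the 8473 regions at gene starts that an interval covers at each distance from the start in bp, downstream to the right, 1 line per library (solid, replicate 1; dashed, replicate 2). The PMSG lines fall off earliest on the downstream side, with a median reach of 474 and 483 bp, and the line of KO replicate 2 is the lowest at the start itself and reaches a median of 559 bp downstream.

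Promoters of these regions were rich in CpG and in GC boxes. The median CpG observed-over-expected ratio was 0.784 over 8466 promoters whose start lay in a region, 0.574 over all 21045 promoters of protein-coding genes, and 0.246 over the 10511 promoters farther than 1 kb from every such region. The GC box (GGGCGG, bound by Sp factors) was found in 70.7% of the first set, 46.7% of all and 23.8% of the last. The TATA box (TATAAA) went the other way, in 6.19%, 12.7% and 19.3%. The CCAAT box (CCAAT) hardly differed, at 38.7%, 38.5% and 38.4%. The NRF1 core (TGCGCA) was in 15.1% against 9.74% of all promoters, the YY1 motif (AAGATGGCG) in 3.21% against 1.84%, the ETS motif (CCGGAAG) in 18.2% against 11.7%, the E-box (CACGTG) in 10.4% against 7.91% and the cyclic AMP element (TGACGTCA) in 3.53% against 2.26%. Less frequent than over all promoters were AP-1 (TGANTCA, 4.16% against 7.04%) and the motif of NR5A receptors (CAAGGTCA, 0.827% against 1.29%). The same held for the RUNX motif (ACCACA, 11.1% against 14.8%) and for AGATAA, read by factors of the GATA family (5.09% against 9.68%). Motifs were searched on both strands of the 300 bases, matches may overlap, and a match is not a bound site. In the 699 divergent promoters, ETS rose to 31.8% and YY1 to 5.87%.

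Wider regions had promoters with more CpG. In 4 groups of equal size ordered by CpG ratio, median width went from 878 bp in the lowest through 992 and 1066 bp to 1144 bp in the highest, while mean summit numbers stayed between 1.58 and 1.70. The correlation of CpG ratio and width over 8473 regions was r = 0.29 (Pearson) and 0.31 (Spearman), a description across regions of shared libraries. Between hCG and PMSG the centred median difference ranged from −0.09 to −0.07 on the log2 scale over the 4 groups. Regions that passed the limma test described further on made up 6.42% (wider) and 8.31% (narrower) of the group with the lowest CpG ratio and 4.2% and 4.44% of that with the highest.

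The first group comparison asks how the gene ends differ after the hormone that stands in for LH. Gene-end regions were wider in the hCG libraries: their median width was 1033 ± 6.01 bp (SD, n = 2) against 862 ± 5.30 bp (SD, n = 2) in PMSG, a ratio of 1.20, and 92.2% of them were wider in bp in the mean of hCG. The groups did not overlap (exact permutation test over libraries, two-sided, p = 0.333, the smallest possible). The shift was not particular to gene ends, since distal regions gave a ratio of 1.24. Covered sequence over the gene-end regions was 12.4 and 12.4 Mb in hCG against 10.3 and 10.4 Mb in PMSG. Because the lists carry no read numbers, a library-wide difference in width cannot be told apart from a difference in depth or in signal over background. Regions were therefore tested singly with limma on log2 width centred on each library's median over the 37189 regions, a centring that removed 0.29 on the log2 scale between hCG and PMSG.

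After centring, 699 gene-end regions were wider in hCG and 714 narrower (limma, Benjamini-Hochberg over 37189 regions, adjusted p under 0.05), 6.04% and 6.17% of them. Over all regions held by all 8 lists the shares were 11.3% wider and 11.0% narrower, and the difference between these shares was not tested. All 699 wider regions also passed without centring. Of the 714 narrower ones, 60 passed without centring and 491 kept their sign, so narrower here means narrower relative to the library unless bp values are given. Without centring the split was 3334 wider against 60 narrower. With 1 hCG library left out, whether replicate 1 or replicate 2, no region passed (1995 and 1898 had an unadjusted p under 0.05). Leaving out PMSG replicate 1 left 151 wider and 24 narrower, and leaving out PMSG replicate 2 left 257 and 34.

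**Figure D3:**
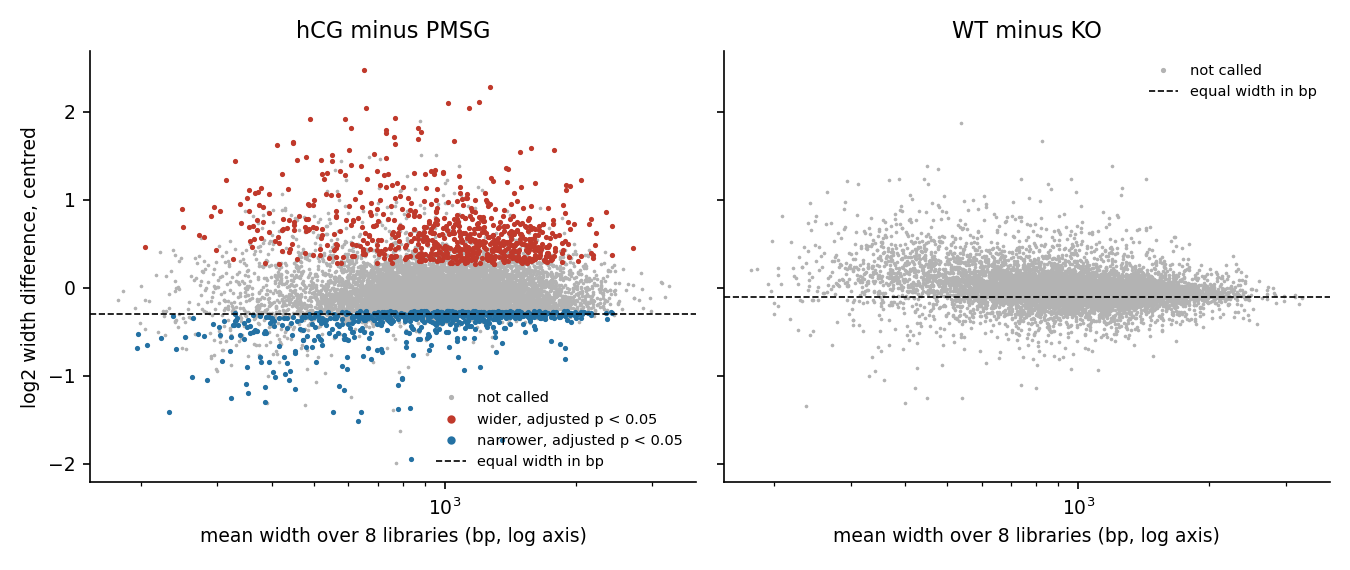
Centred log2 width difference of each gene-end region (hCG minus PMSG, left; WT minus KO, right) against its mean width in bp over 8 libraries, on a log axis. Red and blue points passed limma at adjusted p under 0.05 (699 wider and 714 narrower in hCG), no point passed on the right, and the dashed line marks equal width in bp, which lies 0.29 below 0 on the left.

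The regions wider in hCG had more summits there as well. Their median width was 1260 and 1266 bp in hCG against 677 and 686 bp in PMSG, and mean summits were 2.26 and 2.14 against 1.3 and 1.31. Those widths chose the set, and summit number went with width over all gene-end regions (Pearson's r = 0.69). Both measures are therefore given as description. At the 451 of them that held a start, the downstream edge lay 345.5 bp farther out in hCG in the median and the upstream edge 85.0 bp, with the larger shift downstream in 69.2%, close to the 67.7% over all regions at starts. Other-end regions, as defined above, made up 14.6% of the set, against 7.08% of all gene-end regions. In the PR libraries, which the test did not use, the same regions measured 1213 and 1217 bp in WT and 1219 and 975 bp in KO. There they were nearer in centred width to the hCG mean than to the PMSG mean in 77.5% and 83.4% of cases in WT and in 81.8% and 65.0% in KO. Over all gene-end regions these shares were 70.1%, 73.2%, 70.2% and 49.0%. A majority nearer to hCG was therefore also found over all gene-end regions in every PR library except KO replicate 2. For the 714 narrower regions the shares were 79.3% and 87.0% in WT and 85.0% and 45.5% in KO, and for the 60 that were narrower without centring too they were 41.7%, 71.7%, 71.7% and 45%. The differences between these shares were not tested.

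**Figure D4:**
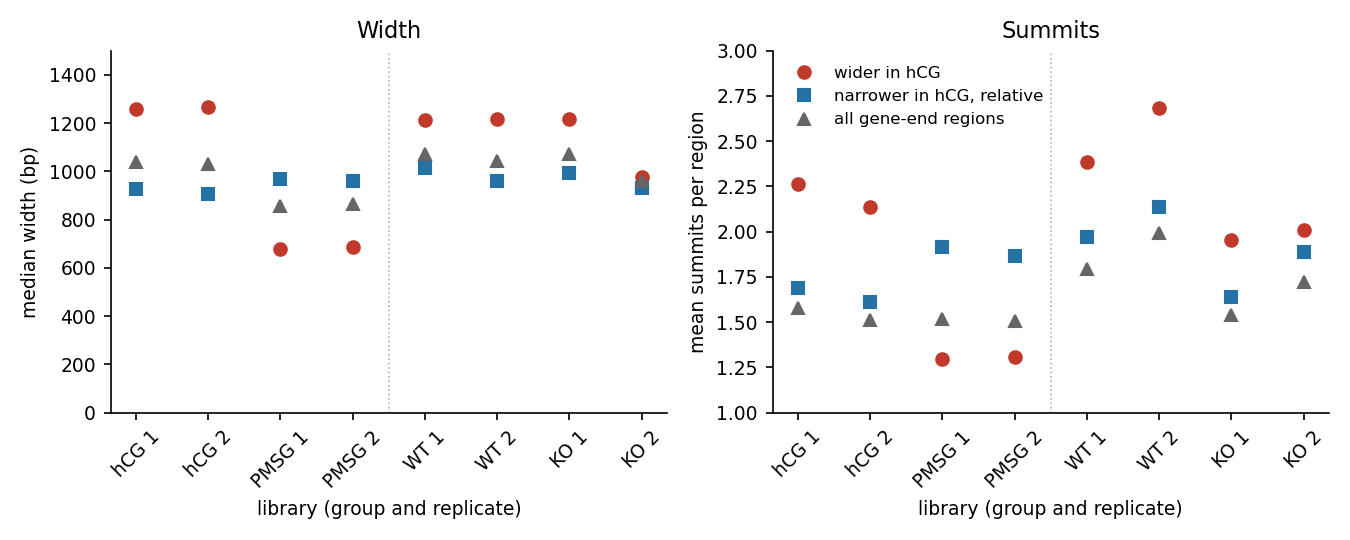
Median width in bp (left) and mean summits per region (right, axis from 1) in each library for the 699 regions wider in hCG, the 714 narrower in hCG relative to the library, and all 11566 gene-end regions. The wider set is at 677 and 686 bp in PMSG and between 975 and 1266 bp in the other 6 libraries, and the PR libraries were not used to choose it.

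The largest widening on the centred log2 scale was at the start of Ypel4. Its region (chr2:84733181-84734451) measured 1239 and 1238 bp in hCG and 201 and 165 bp in PMSG, with 648, 638, 649 and 439 bp in WT 1, WT 2, KO 1 and KO 2. The centred log2 difference was 2.47 (SE 0.11, limma adjusted p = 0.0097). At Crabp2, which encodes a binding protein for retinoic acid (chr3:87947322-87949198), the widths were 1717 and 1876 bp in hCG against 295 and 306 bp in PMSG, and 1087 to 1761 bp in the PR libraries. Tesc, which encodes the calcium-binding protein tescalcin, measured 1800 and 1695 bp in hCG against 345 and 314 bp in PMSG. Both WT libraries (1734 and 1836 bp) and KO replicate 1 (1595 bp) were long there, and KO replicate 2 was short (252 bp). Summits at Tesc numbered 7 and 5 in hCG, 1 and 2 in PMSG.

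The next regions differed by a similar size. Npb, which encodes neuropeptide B, had 1481 and 1470 bp in hCG and 295 and 290 bp in PMSG, with 1108 to 1510 bp in the PR libraries. The region near Trhr2, a receptor of thyrotropin-releasing hormone, had 799 and 820 bp in hCG and 156 and 164 bp in PMSG. Cyb5a, which encodes cytochrome b5, an electron donor in steroid synthesis, had 940 and 947 bp in hCG and 239 and 170 bp in PMSG. In these last 2 regions each library of the LH experiment held 1 summit, so that widening came without added summits.

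The other 4 of the 10 largest included a pair with uneven replicates. Lbx1, a homeobox factor, had 1823 and 952 bp in hCG against 267 and 234 bp in PMSG, and Nfix, a nuclear factor I gene, had 1191 and 746 bp against 271 and 175 bp. In both the hCG replicates lay far apart but above both PMSG libraries. Kif24, a kinesin gene, measured 806 and 822 bp against 195 and 157 bp. Ndufa10, of complex I of the respiratory chain, measured 733 and 852 bp against 162 and 180 bp. Over the 10 genes the centred log2 difference ranged from 1.82 to 2.47 and the limma adjusted p from 0.0097 to 0.0434. All 10 calls were lost without hCG replicate 1 or hCG replicate 2, as was every other call of a gene-end region between hCG and PMSG. Lbx1 and Nfix also lost theirs without either PMSG library (0.0865 to 0.117), Lbx1 with the replicate block (0.0551), Nfix with the longest interval (0.106) and Tesc with all 8 libraries in 1 fit (0.0803).

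Of the 10 regions with the largest relative narrowing, 8 were other-end regions, with no listed start within 1 kb of the midpoint. Over all 714 narrower regions that share was 11.9%, against 14.6% of the 699 wider ones and 7.08% of all gene-end regions. Cdk1, the kinase that drives mitosis (chr10:69334385-69335696), had 303 and 379 bp in hCG against 1075 and 1055 bp in PMSG, a centred log2 difference of −1.95 (SE 0.14, limma adjusted p = 0.0116). In the PR libraries the same region was long in WT (1312 and 977 bp) and in KO replicate 1 (1039 bp), and 547 bp in KO replicate 2. At Atp6v0a1, a subunit of the vesicular proton pump, the widths were 749 and 472 bp in hCG and 1566 and 1644 bp in PMSG. The start of Tafa5 measured 380 and 357 bp against 1008 and 730 bp. All 10 had groups that did not overlap and were narrower without centring as well. Beyond the hCG libraries, leaving out PMSG replicate 1 or 2 ended the calls of Cdk1, Atp6v0a1 and Ppp1r12a (limma adjusted p of 0.0504 to 0.101). The replicate block ended those of Atp6v0a1, Ppp1r12a and Serinc3 (0.0524 to 0.0648), the longest interval those of Atp6v0a1 and Tafa5 (0.0661 and 0.0695), and a best −log10 q of 20 or more that of Atp6v0a1 (0.0795).

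Fdx1, which encodes the ferredoxin that passes electrons to the enzyme of the first step of steroid synthesis, was among them. Its region, 884 bp from an end of the gene by its midpoint, had 525 and 563 bp in hCG against 1147 and 1140 bp in PMSG. Apoa4, an apolipoprotein gene, had 410 and 461 bp against 849 and 998 bp. Ppp1r12a, a subunit of myosin phosphatase, had 403 and 290 bp against 743 and 745 bp. She, an adaptor gene, and Serinc3, Selenot and Gas2l1 were short regions that went from 342 to 866 bp in PMSG to 169 to 375 bp in hCG. The 60 regions narrower with and without centring had medians of 411 and 413.5 bp in hCG against 624.5 and 663 bp in PMSG, and low fold percentiles (a median of 35.4 against 78.0 over all gene-end regions). Of these 60, 40.0% were other-end regions.

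**Figure D5:**
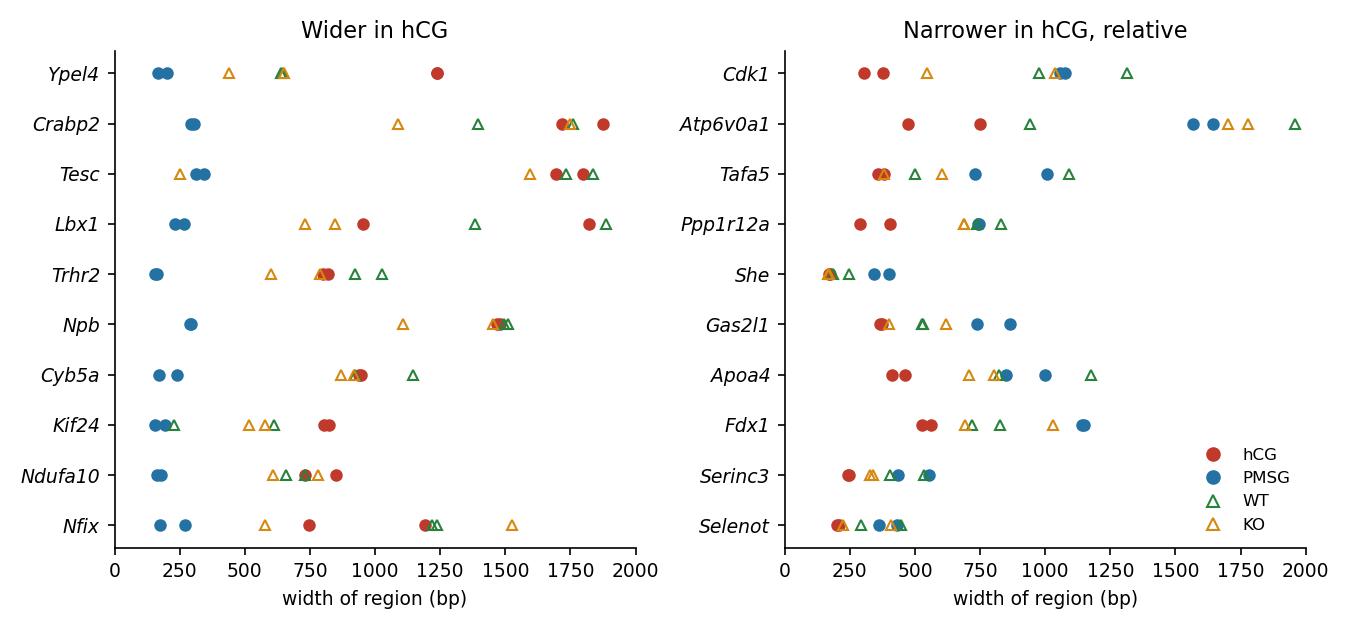
Width in bp, per library, of the 10 gene-end regions with the largest centred widening in hCG (left) and the 10 with the largest narrowing (right), each named by the nearest gene. Filled points are the LH libraries used in the test and open triangles the PR libraries, and on the left every PMSG point is at 345 bp or less while every hCG point is at 733 bp or more.

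Genes known for follicle biology and the housekeeping families are given by list, to be read against the 6.04% wider and 6.17% narrower over all gene-end regions. None of the lists was tested as a set. Of the 12 regions at LH-induced genes, 1 was wider and 1 narrower, with a centred median of −0.09 on the log2 scale against −0.07 over all gene-end regions. Ptx3, which encodes pentraxin 3 of the cumulus matrix, measured 1736 and 1714 bp in hCG and 1177 and 1140 bp in PMSG (log2 difference 0.28, SE 0.05, limma adjusted p = 0.0460). This call was lost with any 1 LH library left out, and with the replicate block (limma adjusted p = 0.112), all 8 libraries in 1 fit (0.146), equal interval numbers (0.0839), a best −log10 q of 20 or more (0.0815) and all regions held by the 4 LH libraries (0.052). Cebpb measured 1715 and 1673 bp against 2291 and 2141 bp (−0.68, SE 0.06, limma adjusted p = 0.0149), so it was shorter in bp as well. Its call was lost without PMSG replicate 1 (limma adjusted p = 0.0541) and with the replicate block (0.0533), besides the hCG libraries. Its PR libraries measured 1705 to 1954 bp, below both PMSG libraries, and WT replicate 2 (1705 bp) lay within the hCG range. Adamts1, a protease gene needed for ovulation, had 2102 and 2131 bp against 1581 and 1650 bp, a centred difference of 0.10 that did not pass (limma adjusted p = 0.313). Nrip1, a nuclear receptor corepressor, Cyp11a1, the side-chain cleavage enzyme, and Ereg, an EGF-like ligand, did not pass either, with centred differences of 0.03, −0.27 and −0.03.

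Of 10 regions at genes active before the surge, 2 passed, both wider. Their median width was 1399 bp and their median fold percentile 25.6, against 993 bp and 78.0 over all gene-end regions. Other lists lay on the same side of both values, with 1179 bp and 18.6 for immediate early genes, 1304 bp and 18.9 for granulosa markers, and 1085 bp and 52.0 for LH-induced genes. Foxl2 (chr9:98954556-98957460) had 2728 and 2809 bp in hCG against 1395 and 1386 bp in PMSG, a centred log2 difference of 0.70 (SE 0.06, limma adjusted p = 0.0137). The call was lost with any 1 LH library left out (limma adjusted p of 0.0511 to 0.0905) and with the replicate block (0.0522). All 4 PR libraries were long there, from 2695 to 2816 bp, and summits numbered 7 and 6 in hCG, 1 and 2 in PMSG, and 4 to 6 in the PR libraries. Gja1, the gap-junction protein connexin 43, had 1937 and 2245 bp in hCG against 465 and 683 bp in PMSG (1.59, SE 0.24, limma adjusted p = 0.0318), a call also lost without PMSG replicate 1 (0.0585). In the PR libraries it had 2180 and 1835 bp in WT and 2064 and 1203 bp in KO. The region at Inha, which is nearest to the listed start of its neighbour Obsl1, and those at Foxo1 (a forkhead factor), Fshr and Fst had centred differences of 0.28, 0.22, −0.05 and −0.12 and did not pass.

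Among genes of cholesterol synthesis and uptake, which supply steroid production, 15 of 16 genes had a region in all libraries. Of 18 regions, 2 were wider and 1 narrower, against 6.04% and 6.17% of all gene-end regions. Mvd, mevalonate diphosphate decarboxylase, measured 1739 and 1772 bp in hCG against 939 and 962 bp in PMSG (0.59, SE 0.06, limma adjusted p = 0.0175). Mvk, mevalonate kinase, measured 1232 and 1218 bp at its start against 744 and 756 bp (0.41, SE 0.06, limma adjusted p = 0.0270). The region at the other end of Mvk was narrower relative to the library, with 423 and 418 bp against 456 and 478 bp. These 3 calls were lost with any 1 LH library left out (limma adjusted p of 0.0547 to 0.133) and with the replicate block (0.0568 to 0.0784), and that at the other end of Mvk without centring too (0.126). Cyp51, Scarb1, Srebf2 and Insig1 had centred differences from −0.16 to 0.25 and did not pass.

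Of 18 regions at immediate early genes, 1 was wider and 1 narrower. Nr4a3, an orphan nuclear receptor, was the wider one, with 987 and 1018 bp in hCG against 442 and 450 bp in PMSG (0.88, SE 0.06, limma adjusted p = 0.0114). The start of Fosb was narrower relative to the library only, with 502 and 486 bp against 494 and 485 bp, and its sign turned without centring (0.0131). Of 12 regions at PGR-dependent genes none was wider and 2 were narrower relative to the library. Cxcr4, a chemokine receptor, had 1571 and 1422 bp against 1540 and 1555 bp, and Ctsl, cathepsin L, had 881 and 852 bp against 857 and 858 bp, a difference of 0.0149 without centring. Of the stroma markers, Ptch1, the hedgehog receptor, was wider, with 1013 and 1099 bp against 603 and 571 bp. The calls of Fosb, Cxcr4, Ctsl and Ptch1 were lost with any 1 LH library left out (limma adjusted p of 0.0888 to 0.166), with the replicate block (0.0788 to 0.114) and with all 8 libraries in 1 fit (0.0863 to 0.308). Those of Fosb, Cxcr4 and Ctsl were also lost without centring (0.617 to 0.861), with centring on gene-end regions alone (0.057 to 0.0623) and with all regions held by the 4 LH libraries (0.053 to 0.0574), those of Cxcr4 and Ctsl with quantile normalization (0.0665 and 0.0507), and that of Fosb with a variance trend (0.0745). No region at the named markers of endothelium, leukocytes or oocytes passed.

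Regions at cytoplasmic ribosomal protein genes had a centred median of −0.01, with 5 of 78 wider and 0 narrower, where all gene-end regions had −0.07, with 6.04% wider and 6.17% narrower. Those of the mitochondrial ribosome had −0.04 with 4 of 77 wider and 1 narrower, the proteasome −0.09 with 0 of 36 in either direction, and Mediator −0.03 with 1 of 31 wider and 2 narrower.

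Summit numbers per region overlapped between hCG and PMSG. The mean was 1.54 ± 0.0441 (SD, n = 2) in hCG and 1.51 ± 0.00856 (SD, n = 2) in PMSG, a difference of 0.0337 with overlapping groups (exact permutation test, two-sided, p = 0.667). Over all gene-end regions this came to 1.46 and 1.41 summits per kb in hCG, against 1.71 and 1.68 in PMSG, without overlap. In 808 gene-end regions (6.99%) both hCG libraries had more summits than both PMSG libraries, and in 623 (5.39%) fewer. Over all regions held by all 8 lists these shares were 6.61% and 5.3%.

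The second group comparison asks what the loss of the progesterone receptor leaves different after hCG. No gene-end region changed in width between WT and KO by limma (0 of 11566, smallest adjusted p = 0.219), and the share over all 37189 regions was 0.0% wider and 0.0% narrower. At an unadjusted p under 0.05 there were 221 wider and 207 narrower gene-end regions in WT. The median width was 1058 ± 19.1 bp (SD, n = 2) in WT and 1015 ± 77.8 bp (SD, n = 2) in KO, a ratio of 1.04 that lay within the spread of the KO libraries (exact permutation test, two-sided, p = 0.667). The KO replicates stood apart, at 1070 and 960 bp, and without KO replicate 2 the ratio was 0.988. With a trend in the variance the test also called 0 regions, and with all 8 libraries in 1 fit it called 5. Leaving out WT replicate 1 gave 41 calls and leaving out WT replicate 2 gave 76.

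The regions with the smallest p are given as values. Jag2, a Notch ligand, had 1799 and 1616 bp in WT against 696 and 643 bp in KO, with 1535 to 1808 bp in the LH libraries (centred log2 difference 1.24, SE 0.12, limma adjusted p = 0.219). Zfp362, a zinc finger gene, had 1522 and 1436 bp in WT against 646 and 602 bp in KO, with 1409 to 1521 bp in the LH libraries. At both genes the KO libraries were the 2 short ones of all 8, including the PMSG libraries. Gng13, a G protein γ subunit, had 756 and 671 bp in WT against 282 and 237 bp in KO. In the LH libraries it had 426 and 209 bp in hCG and 568 and 660 bp in PMSG. Cdh3, P-cadherin, had 948 and 616 bp in WT against 198 and 189 bp in KO, with 828 and 784 bp in hCG and 298 and 447 bp in PMSG. Glipr1l1 had 425 and 447 bp in WT against 217 and 195 bp in KO. Its LH libraries were short as well, with 247 and 188 bp in hCG and 324 and 278 bp in PMSG.

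Other regions were longer in KO without passing the test. Alkbh1, a DNA and RNA demethylase, had 572 and 638 bp in WT against 1279 and 1187 bp in KO, with 571 to 781 bp in the LH libraries. Sec61a2, of the protein translocation channel, had 773 and 778 bp against 1343 and 1131 bp, and Ralyl had 359 and 372 bp against 651 and 623 bp. At these genes the KO libraries were the 2 long ones of all 8. Zfp456 had 327 and 342 bp in WT against 849 and 648 bp in KO, while the LH libraries lay between at 463 to 607 bp. Tmigd1 passed the test in the LH experiment and not in the PR experiment. It had 645 and 645 bp in hCG against 174 and 163 bp in PMSG (log2 difference 1.64, SE 0.06, limma adjusted p = 0.0097), and 317 and 293 bp in WT against 682 and 667 bp in KO (−1.25, SE 0.13, limma adjusted p = 0.219). Its call between hCG and PMSG was lost without hCG replicate 1 or hCG replicate 2.

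Summits per region were more numerous in WT. The mean was 1.89 ± 0.143 (SD, n = 2) in WT and 1.63 ± 0.130 (SD, n = 2) in KO, a difference of 0.262 without overlap (exact permutation test, two-sided, p = 0.333, the smallest possible). Per kb the groups overlapped, with 1.61 and 1.83 summits in WT against 1.38 and 1.74 in KO. Regions with 3 or more summits made up 19.7% and 25.6% in WT against 12.7% and 17.6% in KO. In 1133 gene-end regions (9.80%) both WT libraries had more summits than both KO libraries, and in 148 (1.28%) fewer, against 9.36% and 1.11% over all regions held by all 8 lists. The lists differed in length in the same direction, with 80137 and 84313 intervals in WT and 58851 and 55654 in KO. With 55654 intervals taken from each list by fold the difference was 0.215. It was 0.161 without WT replicate 2 and 0.171 without KO replicate 1, still without overlap.

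Width differences of the 2 comparisons, which share no library, were weakly related across the 11566 gene-end regions (Pearson's r = 0.16, Spearman's rho = 0.13, a description over regions that are not independent). Among the 699 regions wider in hCG, the median WT minus KO difference was 0.02 on the centred log2 scale, and among the 714 narrower ones it was −0.06, against −0.04 over all gene-end regions. Whether the hCG effect differed with the presence of Pgr was not tested, since no PMSG library of the PR strain was used here.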

How the data were processed

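The regions and gene lists were chosen with earlier results of these data known. Granulosa-cell DNA of 8 libraries was tagged with Tn5, selected at 200 to 600 bp and sequenced as 150 bp pairs, per the labels' protocols. Bowtie2, MACS2 and mm10 are named in the submitters' processing notes, versions not given in the sources used here; a shift of reads for the cut of Tn5 is not given either. The authors deposited 1 peak list per library, called per sample. Peak names of the PR lists carry a prefix on marked duplicates and filtering that the LH lists lack, so processing may have differed between experiments. Column 7 of the deposited lists is the fold enrichment of a summit, a ratio within the library, used to describe, rank and choose peaks within a list. Columns 8 and 9 of the deposited lists are −log10 p and −log10 q, with q used for 1 alternative. The score column of the deposited lists was not used. The lists hold no read counts, so depth is unknown, and the number of intervals (55654 to 84313) is the measure of a library's sensitivity.

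Rows sharing an interval were its summits. Genes, starts and sequences came from RefSeq tables of GRCm38.p6 (21631 protein-coding genes, 21045 promoters). Regions were fitted per experiment with limma 3.58.1 in R 4.3.3 on centred log2 width, with Benjamini-Hochberg adjustment over 37189 regions. The procedure was run on simulated widths with the same spread in every region, so it was not tested at unequal spreads. Library values were compared by exact permutation tests, in which 2 against 2 libraries cannot give a p below 0.333. Replicates are biological, per the series' design text. Deviations of libraries with the same replicate number were nearly uncorrelated over the centred widths (0.03 in the LH and 0.01 in the PR experiment). That measure cannot show whether replicates were processed as pairs. Regions were named by the nearest gene end: the 10 largest changes per direction past the threshold, otherwise the 5 smallest p per direction without overlap; the 10 widest, 5 narrowest, 5 with most summits and 5 with best fold percentile; and regions at listed genes, up to 6 a list plus any that passed. Of the promoters this rule selects, 6 are printed. Alternatives are in the closing section.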

Additional observations from a re-analysis of the deposited data

How the results depend on the processing

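The number of gene-end regions kept within 1.5 times of 11566 under every alternative tried (9701 to 13129). The count of 1413 width changes between hCG and PMSG became 3394 without centring, 2954 with a variance trend (1000 wider, 1954 narrower), 3676 at adjusted p under 0.10 (1240 and 2436), and 789 with all 8 libraries in 1 fit (553 and 236). From 699 wider and 714 narrower, the split moved toward wider with quantile normalization (774 and 585), with centring on gene-end regions alone (752 and 342), and with all regions held by the 4 LH libraries (608 and 381). It moved toward narrower with a best −log10 q of 20 or more (742 and 1069), with equal interval numbers (650 and 987), and with the longest interval (823 and 963). With the replicate block 130 were past the threshold (106 wider, 24 narrower), though the numbers share no more than a label, and leaving out 1 library gave 0 to 291. For WT against KO the count of 0 became 5 with all 8 libraries in 1 fit and ranged from 0 to 76 with 1 library left out; the replicate block gave 0. The ratio of median widths of WT and KO ranged from 0.988 to 1.10 with 1 library left out, and the lower value, without KO replicate 2, reversed its direction. The WT minus KO reach around starts ranged from −9.5 to 37.5 bp upstream and from −12 to 60 bp downstream, the negative values without KO replicate 2. The ratio of gene-end to distal width was 1.77 with the LH libraries alone and 1.74 with the PR libraries alone, and the summit difference 0.147 and 0.234, each with too few pairs to pass 0.05. The 32 called regions that were named for their hCG against PMSG change or by a list gave 545 values. Of these, 411 kept direction and side of the threshold and 132 lost the call, among them every one without either hCG library. Ctsl and the start of Fosb reversed without centring (0.0149 and 0.0131 on the log2 scale). Tmigd1, Chmp6, Lars2, Susd2 and Gm14410, named by other rules, also passed between hCG and PMSG and are not in this tally. Of 175 values for the 10 regions named between WT and KO, 22 passed, 17 of them with 1 WT library left out. The causes were not tested. Depth is unknown for these lists, and signal below the authors' threshold for a peak does not enter a width.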
